A study of Mus musculus with 56 samples.

Results

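Orthotopic tumours, grown by transplanting neural stem cells (NSCs), were compared here with medulloblastomas that arose in GTML mice, by the deposited array levels of all genes. The members were 9 orthotopic tumours and 32 GTML tumours, 41 of the 56 arrays of the series, chosen by their titles. The orthotopic tumours came from FVB/N NSCs into which a mutation-stabilised N-myc had been transduced, and 3 tumours came from each source: embryonic cerebellum of day 16 (E16C), newborn cerebellum of postnatal day 0 (P0C) and newborn forebrain of the same day (P0F). The GTML tumours were harvested from FVB/N mice in which the promoter of the glutamate transporter Glt1 drives a tetracycline transactivator, and that in turn a MYCN transgene. Both groups thus carry N-myc, as a stabilised mutant in transduced cells of the first and as a brain transgene in the second. The labels give neither the site of transplantation nor whether tumours of the same origin had separate cultures behind them, so the p-values measure the spread between these tumours. The titles of cells cultured from the tumours call the E16C and P0C sources MB and the P0F source glioma. Further arrays were read only beside results: 5 cerebella of doxycycline-treated GTML mice at postnatal day 7 (P7), and 9 single cultures of the transplant series (tumour-derived cells, N-myc NSCs and NSCs with green fluorescent protein, GFP).

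Medulloblastoma is a tumour of the cerebellum with several molecular subgroups. Group 3 tumours express photoreceptor genes under the homeobox factors Otx2 and Crx, Group 4 tumours express neuronal differentiation genes, and the hedgehog subgroup resembles granule neuron precursors, which divide in response to sonic hedgehog. Sox2 keeps neural stem and progenitor cells undifferentiated, and in those cells the receptors Notch1 and Notch2 turn on Hes and Hey repressors that hold back neuronal factors such as Neurod1.

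The labelling protocol went with the groups: orthotopic tumours and the cultures of their series were labelled by the Ambion protocol, GTML tumours and P7 cerebella by the Affymetrix ST protocol. Tumour model and protocol therefore cannot be told apart in the comparison itself, and genes were weighed by the size of the difference and by lack of overlap. GTML tumours 20, 22, 30 and 31 stood apart. Their median correlation with the other GTML arrays was 0.625 to 0.833, against 0.941 to 0.975 for the other 28. Numbers 20, 22 and 30 were low in replication and mitosis genes (list mean 7.01, 7.22 and 8.87) and number 31 was not (10.45). For most lists, counts over all orthotopic tumours and changed calls are given with and without them. Among the cultures, the array labelled as GFP forebrain NSCs carried Otx2 at 11.82 and Crx at 10.19, where the other 8 cultures had at most 6.44 and 6.71. The culture grown from a GTML tumour, whose protocol the labels do not settle, had 12.92 and 11.15. Array medians lay between 7.91 and 8.06 in orthotopic and between 7.86 and 8.04 in GTML tumours, and how many arrays a group has limits how precise its values are.

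Levels are log2 intensities throughout and differences are orthotopic minus GTML in log2 units, where 1 unit is a 2-fold change. Differences against levels near 6.30, percentile 25 of the deposited values, may understate those of the transcripts, since probes this dim read mostly background. Of 12038 genes tested with limma, 3215 (26.7%) were higher and 3965 (32.9%) lower in orthotopic tumours at an adjusted p under 0.05, 59.6% in all, with a median difference of -0.05. A gene was called when it also differed by at least 1 log2 unit and no orthotopic value lay within the GTML range. There were 382 called genes (3.17%), 176 higher (1.46%) and 206 lower (1.71%). Without the 4 GTML tumours there were 1072, 455 higher (3.82%) and 617 lower (5.18%), and 371 genes were called both ways. Past the test alone there were then 30.7% higher and 38.3% lower. Of the genes named in the text, some overlapped with all 32 GTML tumours and were called without the 4. They were Otx2, Impg2, Rbp3, Neurod1, Neurod4, Slc17a6, Syp, Odc1, Umps, Nes, Sox9, Pdgfra, Fgfr2, Flt1, Tgfb2 and Cd8a.

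The photoreceptor genes that mark GTML tumours were low in all 9 orthotopic tumours, where the list averaged 6.21 to 6.35, against 6.36 to 10.05 in GTML tumours. Otx2, which lies upstream of Crx, was at 6.30, 6.12 and 5.88 in E16C, at 6.89, 6.14 and 5.61 in P0C and at 5.88, 5.45 and 5.64 in P0F tumours, against a lowest value of 6.18, a median of 13.07 and a highest value of 13.31 in GTML tumours. One GTML tumour, number 31, lay among the orthotopic values, and the other 28 outside the set that stood apart ran from 12.83 to 13.31. The difference was -6.59 (SE 0.50, limma adjusted p = 8.77e-15), with 5.99 ± 0.44 in orthotopic (SD, n = 9) and 12.58 ± 1.52 in GTML tumours (SD, n = 32). P7 cerebella averaged 10.25 and also stood above every orthotopic tumour.

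Crx, the factor that switches on genes of rods and cones, was called. It was at 5.88, 6.37 and 6.05 in E16C, at 5.69, 6.22 and 6.24 in P0C and at 6.01, 6.30 and 6.00 in P0F tumours, while GTML tumours had a lowest value of 6.64, a median of 12.66 and a highest value of 13.03. The lowest GTML tumours, number 31 at 6.64 and number 20 at 7.12, came close to the orthotopic tumours, and the 28 lay at 12.10 or more. The means were 6.08 ± 0.22 (SD, n = 9) in orthotopic and 12.15 ± 1.54 (SD, n = 32) in GTML tumours (difference -6.06, SE 0.50, limma adjusted p = 1.23e-13). The P7 cerebella, labelled like the GTML tumours, averaged 6.25 for Crx, next to the orthotopic level.

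Of 38 photoreceptor genes listed, 36 were measured and 30 were tested. In 7 of the 30 no orthotopic array reached 6.30, so they passed the filter through the GTML tumours alone and had to differ. In 14 of the 30, those 7 included, fewer than 5 orthotopic arrays lay above 6.30. These genes, Crx and Impg2 among them, passed the filter mainly through GTML tumours. The counts over the tested genes are given as description. Of the 30, 27 fell, none rose, and Crx and Rom1 were called, with a median difference of -2.30. With no filter 27 of 36 (75%) fell, against 27% of all genes. Rom1, a membrane protein of photoreceptor discs, had orthotopic values between 5.99 and 6.49, against a GTML range of 7.27 to 11.38 with a median of 8.94 (difference -2.73, SE 0.37, limma adjusted p = 3.2e-08). Rbp3, the retinoid carrier between photoreceptors and pigment epithelium, had 6.01 to 6.55 in orthotopic and 6.37 to 12.59 in GTML tumours (difference -5.11). Impg2, a proteoglycan of the matrix around photoreceptors, had 5.15 to 6.55 against 5.86 to 13.02 (difference -5.35). Both overlapped only through GTML tumours that stood apart, since the 28 had at least 11.24 and 10.81. Without the 4, 28 of 30 fell and 21 were called. In all 27 genes that fell, the P7 mean lay nearer the orthotopic than the GTML mean, as in 41.1% of all genes that fell. In whole tumours, fewer cells of a type and less RNA per cell cannot be told apart.

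Otx2 and Crx bind DNA with the core TAATCC, so the promoters of the photoreceptor list were searched for it on either strand (GGATTA on the other). RefSeq promoters (GRCm38.p6, 250 bases before to 50 after the start) were at hand for 27 of the 38 genes. Of their 31 promoters, 13 (41.9%) held the core, against 7.06% of 32851 promoters of all genes. This describes letters in these windows, not bound sites. The promoters of 4 genes are shown with the core in capitals, Crx and Rom1 as the called genes of the list and Impg2 and Rbp3 as those that fell most after Crx. Crx holds 2 matches, Rbp3 has 1, and Impg2 and Rom1 have none. They lie at chr7:15879906-15880205 (minus strand), chr14:33953753-33954052 (plus), chr16:56204063-56204362 (plus) and chr19:8929307-8929606 (minus), and each runs 5′ to 3′.
Crx: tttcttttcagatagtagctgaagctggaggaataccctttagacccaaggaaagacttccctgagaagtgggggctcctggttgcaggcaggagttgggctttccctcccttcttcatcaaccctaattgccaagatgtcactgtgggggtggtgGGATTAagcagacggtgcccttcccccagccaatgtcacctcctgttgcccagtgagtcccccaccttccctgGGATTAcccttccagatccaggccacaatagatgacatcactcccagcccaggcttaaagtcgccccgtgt
Rbp3: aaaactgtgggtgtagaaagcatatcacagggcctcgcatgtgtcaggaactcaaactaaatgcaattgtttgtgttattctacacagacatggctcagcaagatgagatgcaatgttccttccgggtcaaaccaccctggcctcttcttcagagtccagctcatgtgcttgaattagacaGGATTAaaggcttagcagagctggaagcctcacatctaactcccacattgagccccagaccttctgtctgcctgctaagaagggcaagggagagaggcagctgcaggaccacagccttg
Impg2: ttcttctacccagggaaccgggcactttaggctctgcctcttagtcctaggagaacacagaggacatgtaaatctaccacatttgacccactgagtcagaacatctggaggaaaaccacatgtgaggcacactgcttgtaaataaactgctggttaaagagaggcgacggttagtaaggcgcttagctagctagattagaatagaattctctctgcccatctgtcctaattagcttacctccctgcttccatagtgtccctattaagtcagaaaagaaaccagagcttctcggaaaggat
Rom1: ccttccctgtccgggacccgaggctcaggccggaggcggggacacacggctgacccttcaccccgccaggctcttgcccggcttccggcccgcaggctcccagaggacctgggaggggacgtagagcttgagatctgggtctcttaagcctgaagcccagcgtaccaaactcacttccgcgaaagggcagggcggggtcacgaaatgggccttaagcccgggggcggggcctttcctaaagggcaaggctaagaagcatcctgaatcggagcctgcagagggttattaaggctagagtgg

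**Figure D1:**
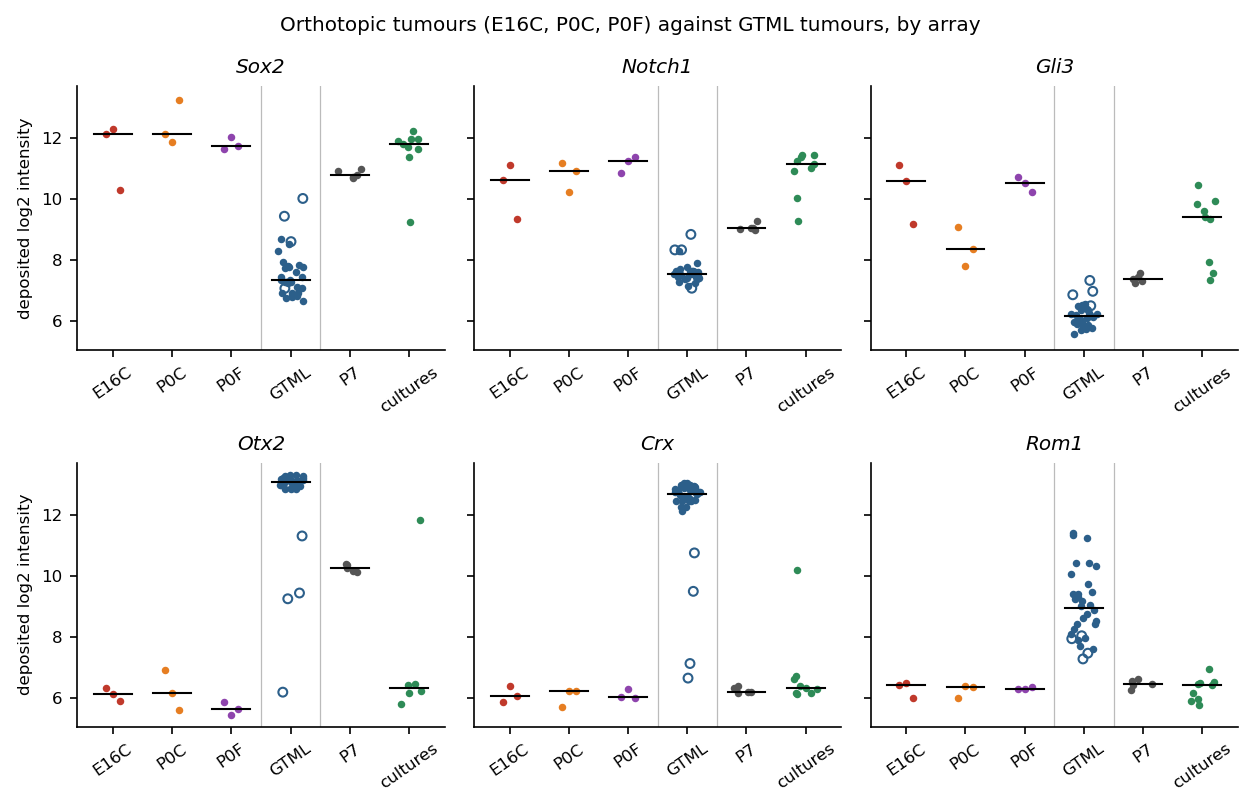
Deposited log2 intensity (vertical axis) of 6 genes in each array, for orthotopic tumours by origin (E16C, P0C, P0F; n = 3 each), GTML tumours (n = 32), P7 cerebella (n = 5) and 9 cultures; black lines are medians and open circles the 4 GTML tumours that stand apart. Sox2, Notch1 and Gli3 lie above every GTML tumour in the 9 orthotopic tumours, Crx and Rom1 lie below every one, and Otx2 overlaps with a single GTML tumour; the culture with high Otx2 and Crx is labelled GFP forebrain NSCs.

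Neuronal genes were lower in orthotopic tumours as well. Of 16 neuron genes tested, 10 fell and none rose (62.5%, against 32.9% of all genes), with a median of -1.31. Without the 4 GTML tumours, of which numbers 20 and 30 had the list at 10.91 and 11.17, 11 of 15 fell and 3 rose, 6 were called and the median was -1.84. Nefh, the heavy neurofilament, was called: its orthotopic values ran from 6.27 to 7.06 with a median of 6.98, its GTML values from 7.42 to 10.80 with a median of 9.85 (difference -3.02, SE 0.22, limma adjusted p = 4.8e-15). P7 cerebella averaged 8.80, and in none of the 10 genes did they lie nearer the orthotopic mean. Slc17a6, the vesicular glutamate transporter of early neurons, averaged 6.02 in orthotopic and 10.63 in GTML tumours, and the synaptic vesicle protein Syp 8.23 and 11.81. Map2, a microtubule protein of dendrites, did not pass with all GTML tumours (11.23 in orthotopic, 11.49 in GTML tumours, adjusted p = 0.392) and fell by 0.44 without the 4 (adjusted p = 0.00591).

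Neurod1, a factor of neuronal differentiation that Group 4 and GTML tumours express, was measured in 8 orthotopic tumours. It was at 7.61, 7.29 and 9.97 in E16C, at 6.75 and 7.21 in 2 of 3 P0C and at 5.54, 6.03 and 6.20 in P0F tumours, against a lowest value of 8.97, a median of 12.66 and a highest value of 12.94 in GTML tumours. E16C tumour 3 alone reached the GTML range, whose lowest values were those of GTML tumours 22 and 31, and the 28 lay at 12.51 or more. The difference was -5.39 (SE 0.38, limma adjusted p = 2.13e-15), and Neurod1 was called without the 4 GTML tumours. Neurod4, a related factor, fell by 4.39 (adjusted p = 1.24e-07) and overlapped. Of the 16 neurogenic and Group 4 genes tested, 9 fell and 1 rose (32.9% and 26.7% of all genes), with and without the 4, and 3 were called only without them. The one that rose was Eomes, a factor of unipolar brush cells and intermediate progenitors, at 6.52 in orthotopic and 6.18 in GTML tumours.

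Genes of neural stem cells and radial glia were higher in orthotopic tumours. Of 16 tested, 13 rose and 2 fell (81.2% and 12.5%, against 26.7% and 32.9% of all genes), with a median difference of 1.41. With the 4 GTML tumours left out, 14 rose and 5 were called in place of 2. Sox2 had the largest rise of the 176 called higher. It was at 12.14, 12.31 and 10.28 in E16C, at 12.14, 11.86 and 13.24 in P0C and at 11.63, 12.03 and 11.73 in P0F tumours, against a lowest value of 6.66, a median of 7.36 and a highest value of 10.02 in GTML tumours. The groups did not overlap, although E16C tumour 3 came close to GTML tumour 30, and the 28 reached 8.70 at most. The means were 11.93 ± 0.78 (SD, n = 9) in orthotopic and 7.59 ± 0.79 (SD, n = 32) in GTML tumours, a 20.3-fold difference (4.34, SE 0.29, limma adjusted p = 1.73e-16).

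Fabp7, the fatty acid binding protein of radial glia, was the other called gene of the list. Its orthotopic values ran from 11.07 to 13.52 with a median of 12.84, and its GTML values from 4.86 to 10.37 with a median of 8.62 (difference 4.19, SE 0.39, limma adjusted p = 3.55e-12). P7 cerebella averaged 10.82 for Sox2 and 12.42 for Fabp7, both nearer the orthotopic mean although labelled like the GTML tumours. Sox9, which specifies glia, rose by 1.35 (adjusted p = 3.45e-09) and the intermediate filament Nes by 2.76, with 11.10 to 11.16 in P0F and 7.92 to 8.98 in the 6 cerebellar tumours. The genes that fell were Prom1 (7.21 in orthotopic, 8.61 in GTML tumours), a membrane protein of stem cells that photoreceptors also use, and the RNA-binding protein Msi1 (10.20 and 10.83).

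Notch receptors and effectors were higher in orthotopic tumours. Of the 12 Notch genes tested, 9 rose and 2 fell (75% and 16.7%, against 26.7% and 32.9% of all genes). The median was 1.06, and 4 were called (33.3%, against 1.46% of all genes). In 3 of the 9 that rose the P7 mean was nearer the orthotopic mean (36.1% of all genes that rose). The same held for the 2 that fell (41.1% of all genes that fell). Among the receptors, Notch1 was at 10.62, 11.11 and 9.35 in E16C, at 11.19, 10.23 and 10.92 in P0C and at 10.87, 11.25 and 11.37 in P0F tumours, against a lowest value of 7.08, a median of 7.56 and a highest value of 8.84 in GTML tumours. All 9 orthotopic tumours lay above all 32 (difference 3.14, SE 0.16, limma adjusted p = 1.3e-19). P7 cerebella averaged 9.08, between the ranges of the groups, and the cultures ran from 9.28 to 11.46.

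Notch2 was at 11.25, 10.82 and 10.25 in E16C, at 10.34, 9.11 and 9.77 in P0C and at 13.11, 13.13 and 11.31 in P0F tumours, while GTML tumours ran from 6.91 to 8.85 with a median of 7.47. Every orthotopic tumour was above this range, the P0F tumours furthest (difference 3.44, SE 0.28, limma adjusted p = 6.13e-14; adjusted p of the difference among origins 3.96e-05). Notch2 lies in a run of neighbouring genes on chromosome 3 that were high together in P0F tumours, described with the origins. Notch3 did not pass with all GTML tumours (8.03 in orthotopic, 7.77 in GTML tumours, adjusted p = 0.0956) and passed without the 4 (difference 0.29, adjusted p = 0.0424), which made 10 genes higher and 2 lower.

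Of the ligands, Dll1 (9.01 in orthotopic, 7.97 in GTML tumours), Dll4 (8.19 and 7.16) and Jag1 (9.31 and 8.24) rose by about 1 unit and Dll3, which acts within the signalling cell, fell (8.48 and 9.29). Of the effectors, which repress neuronal genes, Hey1 and Hey2 were called. Hey1 ran from 8.16 to 10.97 in orthotopic and from 6.79 to 8.15 in GTML tumours (difference 2.16, limma adjusted p = 3.2e-14). Hey2 was at 7.10, 10.33 and 7.74 in E16C, at 9.90, 11.43 and 8.88 in P0C and at 9.55, 9.58 and 8.75 in P0F tumours, against 5.98 to 7.08 with a median of 6.47 in GTML tumours (difference 2.80, SE 0.23, limma adjusted p = 1.23e-13). E16C tumour 1 barely cleared the highest GTML value for Hey2, as E16C tumour 3 did for Hey1. Hes1 rose to 8.92, against 7.58 in GTML tumours, and Hes5 to 9.02, against 8.08. Hes6, which counters Hes1, fell (9.25 and 10.27). The promoter of Hey2 is shown as the called effector matched in the RefSeq table. TGGGAA, the core bound by the Notch partner Rbpj, is in capitals on either strand (TTCCCA on the other), 1 match on each. The core was in 2 of the 12 promoters at hand for 10 Notch genes (16.7%), against 25.6% of all promoters. It lies at chr10:30842734-30843033 (minus strand, GRCm38.p6).
Hey2: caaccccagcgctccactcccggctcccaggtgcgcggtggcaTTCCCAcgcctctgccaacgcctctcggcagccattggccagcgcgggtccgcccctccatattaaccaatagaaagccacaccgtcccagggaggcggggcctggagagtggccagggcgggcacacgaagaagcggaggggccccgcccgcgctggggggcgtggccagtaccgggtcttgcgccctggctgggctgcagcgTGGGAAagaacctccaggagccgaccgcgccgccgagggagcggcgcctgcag

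Sonic hedgehog pathway genes were higher too. Of 12 tested, 9 rose and none fell (75%, against 26.7% of all genes), with a median of 1.15, and in 7 of the 9 the P7 mean was nearer the orthotopic mean (36.1% of all genes that rose). With those 4 left out, 10 rose. Gli3, the transcription factor that mainly represses hedgehog targets, was at 11.12, 10.59 and 9.19 in E16C, at 9.10, 7.81 and 8.37 in P0C and at 10.71, 10.53 and 10.25 in P0F tumours, against a lowest value of 5.58, a median of 6.18 and a highest value of 7.34 in GTML tumours. The groups did not overlap and the P0C tumours were lowest of the 3 origins (difference 3.53, SE 0.23, limma adjusted p = 1.17e-16; among origins 6.95e-05). Smo, the membrane protein that relays the signal, was the other called gene, with 9.28 to 10.85 in orthotopic and 7.72 to 9.12 in GTML tumours (difference 1.54, limma adjusted p = 4.09e-11) and a P7 mean of 9.82. Ptch1, receptor and target, rose by 1.49 (adjusted p = 1.58e-09), and its groups overlapped, with GTML tumour 20 at 10.24 and an orthotopic minimum of 9.43.

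Gli1, the most direct readout of hedgehog signalling, was at 6.75, 8.74 and 7.89 in E16C and between 6.42 and 6.60 in the other 6 orthotopic tumours, against 6.24 to 7.48 in GTML tumours (difference 0.36, adjusted p = 0.0602). Gli1 passed without the 4 GTML tumours (difference 0.44, adjusted p = 0.0119). Atoh1, the factor of dividing granule neuron precursors, was at 10.68, 6.72 and 7.89 in E16C and between 6.04 and 6.36 in the 5 other tumours with a value, against 5.87 to 6.70 (difference 0.60, adjusted p = 0.0549). High values of both genes were thus those of E16C tumours, and the difference depended on origin for each (adjusted p = 0.000628 for Gli1 and 0.000154 for Atoh1). Of 10 granule neuron precursor genes tested, 3 rose and 2 fell (26.7% and 32.9% of all genes), with a median of 0.07, and 4 rose without the 4. Zic1 rose by 2.10 (adjusted p = 0.000124) and its groups overlapped, with GTML tumours 20 and 30 at 12.28 and 12.16 and the 28 at 8.66 or less. Reln, the secreted guidance protein of granule cells, fell by 2.04.

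**Figure D2:**
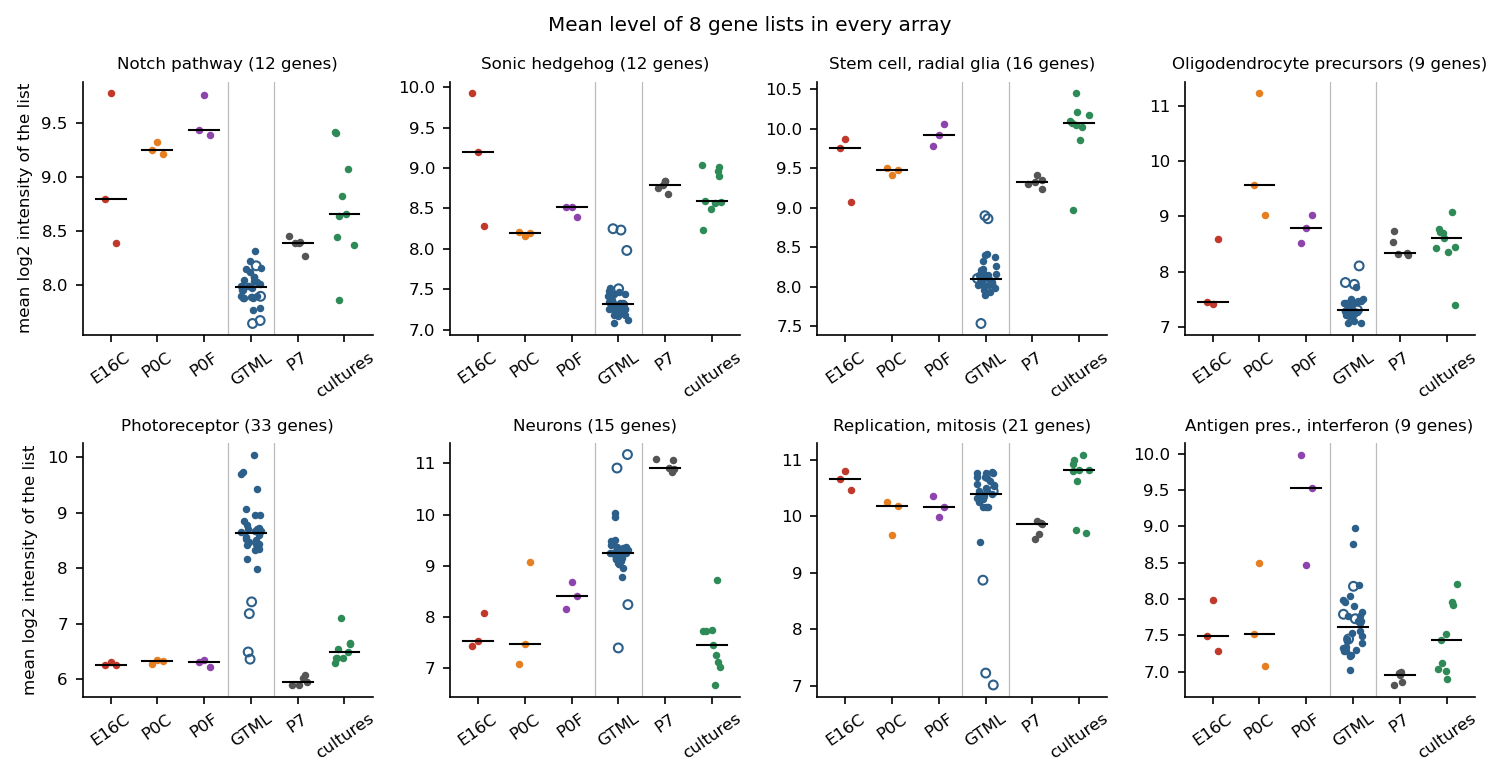
Mean log2 intensity (vertical axes, each with its own scale) of 8 lists in each array, for orthotopic tumours by origin, GTML tumours, P7 cerebella and 9 cultures. Each mean covers the list members without a blank in any array. Black lines are medians and open circles the 4 GTML tumours that stand apart. The orthotopic tumours keep to 6.21 to 6.35 for photoreceptor genes. They lie above all GTML tumours for Notch genes (8.39 to 9.78, against 7.65 to 8.31). For oligodendrocyte precursor genes they run from 7.41 to 8.59 in E16C, 9.03 to 11.23 in P0C and 8.51 to 9.02 in P0F. For interferon genes P0F tumours (8.47 to 9.99) overlap with P0C (7.08 to 8.50) and GTML tumours (7.03 to 8.98) and lie above E16C tumours (7.29 to 7.98).

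Genes of oligodendrocyte precursors were higher in orthotopic tumours. Of 11 oligodendrocyte precursor genes tested, 10 rose and 1 fell (26.7% and 32.9% of all genes), with a median of 1.80, and 9 differed among origins (11.2% of all genes). Without the 4 GTML tumours 10 rose and 1 fell as well (30.7% and 38.3% of all genes). None was called with all GTML tumours and 1 without the 4. Taken by origin, 4 rose in E16C tumours (18.7% of all genes), 10 in P0C tumours (19.4%) and 8 in P0F tumours (20.6%), while 1 fell in E16C and none in P0C or P0F tumours (22.9%, 24.1% and 25.2% of all genes). Olig2, which specifies the lineage, was at 7.46, 8.17 and 8.04 in E16C, at 9.93, 10.74 and 9.97 in P0C and at 9.38, 9.57 and 9.94 in P0F tumours, against a lowest value of 6.88, a median of 7.37 and a highest value of 9.42 in GTML tumours. The E16C tumours lay within the GTML range and the P0C tumours above it (difference 1.80, SE 0.23, limma adjusted p = 1.11e-08). Pdgfra, the growth factor receptor of oligodendrocyte precursors, reached 13.10 in P0C tumour 2 and 6.77 in E16C tumour 2, with 5.82 to 8.44 in GTML tumours (difference 2.64, adjusted p = 1.03e-07). Of 11 myelin genes 5 rose (26.7% of all genes), and 7 without the 4 (30.7% of all genes). Taken by origin, 9 rose in P0C tumours and none in E16C or P0F tumours.

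Among astrocyte genes 6 of 12 rose and none fell (26.7% and 32.9% of all genes), and without the 4 GTML tumours 6 rose and 1 fell. Gfap, the astrocyte filament, had 9.21 to 11.43 in orthotopic and 5.94 to 11.38 in GTML tumours (difference 1.53, adjusted p = 0.00239), and Aldoc rose by 2.28 with overlap. Of 10 growth factor receptors 6 rose and 1 fell (26.7% and 32.9% of all genes), with a median of 1.43, and without the 4 GTML tumours 7 rose and 2 were called. Fgfr2 had the largest rise, with 8.11 to 10.69 in orthotopic and 5.12 to 8.49 in GTML tumours (difference 3.55, SE 0.27, limma adjusted p = 1.79e-14). It overlapped only through GTML tumours 20 and 30 and was called without the 4. Egfr rose by 2.80 (adjusted p = 1.18e-09), with 7.48 to 11.52 in orthotopic and 6.24 to 8.95 in GTML tumours. The receptor that fell was Kdr, of endothelial cells (8.22 in orthotopic, 9.15 in GTML tumours).

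Of 6 forebrain factors tested 5 rose (26.7% of all genes), with and without the 4 GTML tumours, and 2 differed among origins (11.2% of all genes), and Dlx1, a factor of forebrain interneurons, averaged 7.89 in orthotopic and 6.26 in GTML tumours (difference 1.62, adjusted p = 4.35e-07). Its highest value, 10.87, was that of P0C tumour 3, a tumour of cerebellar origin, and the 3 P0F tumours were at 8.73, 8.87 and 7.60 (adjusted p = 0.19 among origins). Of 10 midbrain and hindbrain factors 4 rose and none fell (26.7% and 32.9% of all genes), with and without the 4 GTML tumours, with Irx2 rising by 1.38.

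**Figure D3:**
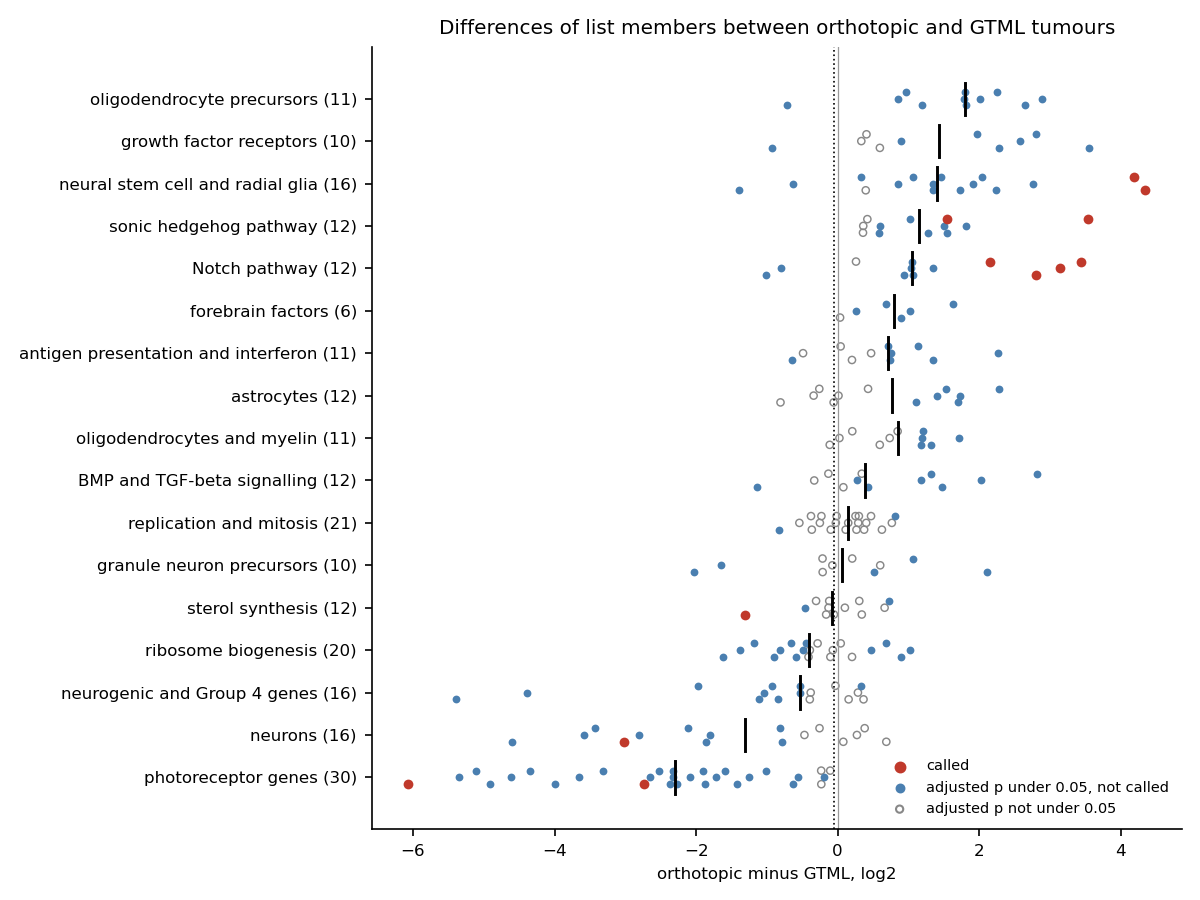
Orthotopic minus GTML difference (log2, horizontal axis) of each tested gene of 17 lists, with the number tested in brackets; black bars are list medians, the dotted line the median of all 12038 genes (-0.05), and red, blue and open points are called genes, genes past an adjusted p of 0.05 and other genes. Photoreceptor and neuron genes lie to the left and oligodendrocyte precursor, stem cell, hedgehog and Notch genes to the right.

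Few proliferation genes passed the test with all 32 GTML tumours. Of 21 replication and mitosis genes tested, Tyms rose by 0.80 (adjusted p = 0.00591), Mcm5 fell by 0.83 (adjusted p = 0.0147) and 19 did not pass. Of all genes 26.7% rose and 32.9% fell. The median difference of the list was 0.15. Mki67 averaged 9.90 ± 0.63 (SD, n = 9) in orthotopic and 9.13 ± 1.07 (SD, n = 32) in GTML tumours (difference 0.77, adjusted p = 0.0664). Without the 4 GTML tumours, 3 of which are low in these genes, the difference in Mki67 was 0.49 and passed (adjusted p = 0.00397). Of the 21 genes 4 then rose and 7 fell (30.7% and 38.3% of all genes). Mycn, the gene behind both models as the mouse probe reads it, averaged 9.06 ± 0.33 in orthotopic (SD, n = 9) and 8.68 ± 0.78 in GTML tumours (SD, n = 32; difference 0.38, adjusted p = 0.215). Whether that probe reads the transgenes is not known here. Myc rose by 0.68 (adjusted p = 0.0136) and reached 10.08 in P0C tumour 2. Cdkn2a, the cell cycle inhibitor locus, averaged 9.99 in orthotopic and 9.66 in GTML tumours (adjusted p = 0.335).

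Many genes of ribosome and nucleotide synthesis are targets of Myc proteins. Of 20 tested 9 fell and 4 rose (32.9% and 26.7% of all genes), with a median of -0.40. Odc1, the enzyme that starts polyamine synthesis, averaged 10.62 in orthotopic and 12.23 in GTML tumours (difference -1.62, adjusted p = 1.64e-09). Umps, of pyrimidine synthesis, fell by 1.38. Without the 4 GTML tumours 14 fell and 3 were called lower (38.3% and 5.18% of all genes). Taken by origin, 4 fell and 4 rose in E16C tumours and 11 fell and 1 rose in P0C tumours. In P0F tumours 6 fell and 4 rose. Of all genes 22.9% fell and 18.7% rose in E16C, 24.1% and 19.4% in P0C, and 25.2% and 20.6% in P0F tumours. In sterol synthesis 2 of 12 genes fell and 1 rose (32.9% and 26.7% of all genes). Without the 4, 4 fell and 2 rose (38.3% and 30.7% of all genes). Mvd, of the mevalonate pathway, was called, with 7.62 to 8.30 in orthotopic and 8.48 to 9.85 in GTML tumours and 10.60 in P7 cerebella.

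Beyond the lists, the largest rises of called genes were in genes of several kinds. Nfia, a factor that starts gliogenesis, had 11.02 to 12.52 in orthotopic and 7.02 to 9.93 in GTML tumours (difference 3.43, SE 0.25, limma adjusted p = 4.8e-15), and P7 cerebella averaged 11.30. Vcan, a matrix proteoglycan, rose by 3.69 and was at 10.74 in P7 cerebella. Antxr1, a collagen-binding receptor, rose by 3.85. Rest, which represses neuronal genes, had 8.58 to 10.07 in orthotopic and 5.92 to 8.10 in GTML tumours (difference 2.99, SE 0.16, limma adjusted p = 4.45e-19), with 7.22 in P7 cerebella. The adaptor Sh3d19 rose by 3.40, Uhrf1bp1l by 3.20, the nucleosome-binding protein Hmgn5 by 2.96 and the ATP-gated channel P2rx7 by 2.94.

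Prm1, a sperm protamine, rose by 4.24. It was at 10.56, 12.79 and 12.20 in E16C, at 10.79, 13.06 and 9.21 in P0C and at 10.92, 9.42 and 10.50 in P0F tumours, against 6.56 to 7.14 in GTML tumours (SE 0.23, limma adjusted p = 7.53e-19). All orthotopic tumours were high while P7 cerebella averaged 6.66 and the cultures spread from 7.10 to 10.03.

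The largest falls of called genes after Crx were Gckr, the regulator of glucokinase (5.70 to 6.19 in orthotopic, 6.22 to 11.05 in GTML tumours, difference -3.39), and Ryr2, a calcium release channel (6.17 to 7.32, and 7.62 to 10.88; difference -3.13). No orthotopic value of Gckr reached the filter level, so Gckr passed the filter through the GTML tumours alone and had to differ. Its fall is given as description. Ebpl, Jph3, which joins the endoplasmic reticulum to the plasma membrane in neurons, and the co-chaperone Dnajc12 had differences of -2.70, -2.67 and -2.62. Micos10, a subunit of the complex that folds the inner mitochondrial membrane, had 8.01 to 9.42 in orthotopic and 10.40 to 11.99 in GTML tumours (difference -2.58, SE 0.12, limma adjusted p = 1.02e-20), P7 cerebella averaged 11.40 and the cultures ran from 8.22 to 9.38. The scaffold Mpp3, the calcium-binding protein Cabp1, Zfp810, Pdcl and the RNA methyltransferase Mettl3 had differences of -2.53, -2.25, -2.22, -2.19 and -2.18.

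How far such differences went with the labelling protocol was read from the further arrays. In 214 of the 382 called genes (56%) all 9 cultures lay outside the GTML range on the orthotopic side of it and none of the 5 P7 cerebella reached the orthotopic range, 109 of them higher and 105 lower. Without the GFP forebrain culture, left out after its values were seen, these were 221. Such cultures can still lie short of the orthotopic range, as for Gli3 (lowest culture 7.35, highest GTML tumour 7.34, lowest orthotopic tumour 7.81), and 6 of the 214 had a P7 mean nearer the orthotopic mean. Micos10, Pdcl, Hmgn5, P2rx7, Rest, Notch1, Gli3 and the ribosomal protein genes Rpl39 and Rps27l were among them. In 49 called genes (12.8%) the P7 mean was nearer the orthotopic mean, 30 higher and 19 lower. Sox2, Fabp7, Vcan, Nfia, Sh3d19 and Smo were among the 30, and Crx, Gckr, Rom1, Ebpl and Cabp1 among the 19. Tissue and protocol still differ together in these arrays, and the part of the protocol in any single gene was not tested.

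**Figure D4:**
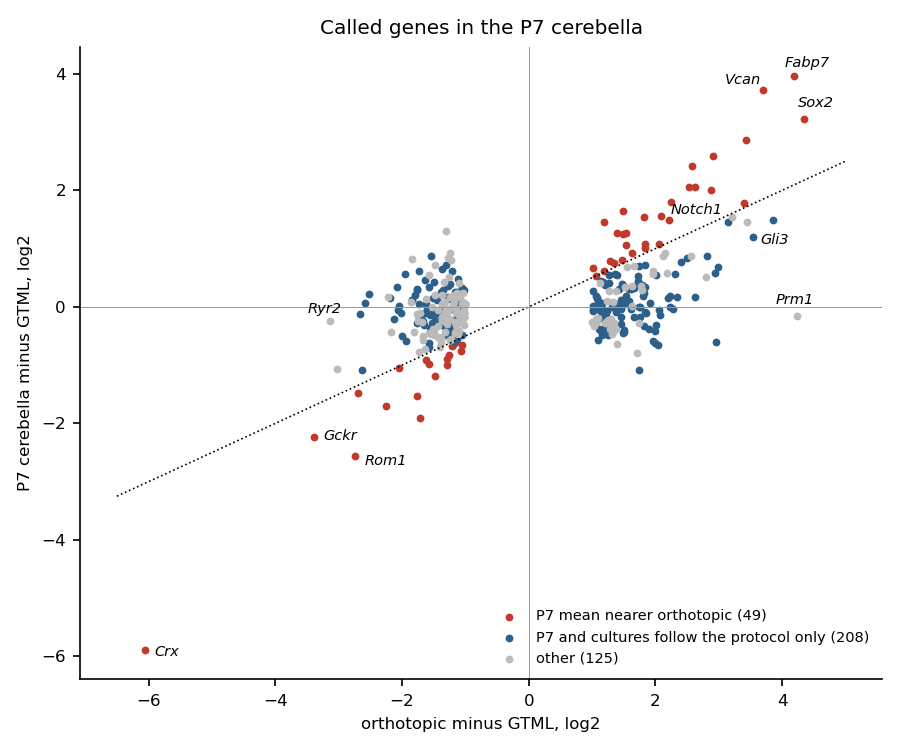
P7 cerebella minus GTML tumours (log2, vertical axis) against orthotopic minus GTML tumours (log2, horizontal axis) for the 382 called genes; above the dotted line on the right and below it on the left, the P7 mean is nearer the orthotopic mean. Red points are those 49 genes, blue points 208 others in which all cultures lie outside the GTML range and no P7 cerebellum reaches the orthotopic range, and grey points the remaining 125.

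Markers of other cell types are set here beside the 26.7% of all genes that rose and the 32.9% that fell. Of 12 microglia and macrophage genes 6 rose and 1 fell, and 8 rose and 1 fell without the 4 GTML tumours. By origin, 1 rose in E16C (18.7% of all genes), 2 in P0C (19.4%) and 6 in P0F tumours (20.6%). In E16C and in P0C tumours 1 fell (22.9% and 24.1% of all genes), and in P0F tumours none fell. Tyrobp, a signalling adaptor of microglia, had 8.56 to 10.08 in orthotopic and 7.53 to 9.99 in GTML tumours (difference 1.21, adjusted p = 2.09e-06), and the list mean ran from 7.83 to 8.98 and from 7.49 to 8.94. The cultures, which should lack these cells, had list means of 6.20 to 7.07. Of 14 endothelial and pericyte genes 5 rose and 1 fell, and 8 rose and 1 fell without the 4. By origin, 2 rose in E16C, 7 in P0C and 1 in P0F tumours, and 1 fell in P0F tumours. Flt1 rose by 1.11. Of 9 fibroblast and meningeal genes 2 rose and 2 fell with and without the 4. Of 4 lymphocyte genes 2 fell, Cd8a and Cd4, with and without the 4 GTML tumours. Cd8a had 5.89 to 6.38 in orthotopic and 6.21 to 8.63 in GTML tumours (difference -1.05, adjusted p = 1.07e-05) and Cd4 fell by 0.70. In 2 of these 4 genes fewer than 5 orthotopic arrays lay above 6.30, so they passed the filter mainly through GTML tumours. With no filter 2 of 8 lymphocyte genes fell (25%) and 1 rose (12.5%), against 27% and 26.1% of all genes. The part of these cells in the other results was not tested.

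The 3 origins were each set against the same 32 GTML tumours, so that their values share that group. There were 352 genes higher and 385 lower among the called for E16C (2.93% and 3.2% of those tested), 395 and 365 for P0C (3.29% and 3.04%) and 601 and 529 for P0F (5% and 4.4%). Photoreceptor genes fell alike, with median differences of -2.24 in E16C, -2.24 in P0C and -2.31 in P0F tumours and none of 30 differing among origins. Sox2 was higher by 3.99, 4.83 and 4.21 (adjusted p = 0.658 among origins). The difference from GTML tumours depended on origin in 1339 genes (11.2%), and 617 (5.14%) differed between P0F and cerebellar tumours at an adjusted p under 0.05, 414 higher (3.45%) and 203 lower (1.69%) in P0F. Without the 4 GTML tumours 3468 genes depended on origin and 1757 differed between P0F and cerebellar tumours.

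Interferon-response genes set the P0F tumours apart. Cxcl10, a chemokine that interferon induces, was at 12.28, 10.17 and 11.86 in P0F tumours, against 8.23, 7.11 and 7.13 in E16C and 6.65, 7.21 and 6.80 in P0C tumours, and at 6.65 to 7.83 in GTML tumours (adjusted p = 1.43e-12 among origins). The antiviral gene Oas2 was at 9.24, 8.90 and 10.56 in P0F and at 5.78 to 6.71 in the cerebellar tumours, and Oasl1, Oasl2, Ifih1 and the GTPase Tgtp1 were highest in the P0F tumours too. Of 11 antigen presentation and interferon genes, 7 were higher in P0F than in cerebellar tumours (3.45% of all genes) and none was lower, with a median of 1.28. The mean of the list still overlapped, with 8.47 to 9.99 in P0F, 7.08 to 8.50 in P0C and 7.03 to 8.98 in GTML tumours. Against GTML tumours 6 rose and 1 fell over all 9 orthotopic tumours (26.7% and 32.9% of all genes). Without the 4 GTML tumours 6 rose and 1 fell too (30.7% and 38.3% of all genes). Taken by origin, 8 rose in P0F tumours (20.6% of all genes) and none in E16C or P0C tumours (18.7% and 19.4%). In E16C tumours 1 fell, and in P0C and P0F tumours none fell (22.9%, 24.1% and 25.2% of all genes). In culture, Cxcl10 was at 6.99 in cells of a P0F tumour and at 6.64 in GFP forebrain NSCs, while the GFP NSCs of E16C had 10.46 and those of P0C 11.17 and 11.08. Lower in P0F tumours were Pax3, a factor of cerebellar progenitors (5.68 to 5.80, against 7.21 to 10.29 in cerebellar tumours), Nhlh1, Folh1 and Kif6.

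A run of 44 tested genes that neighbour each other on chromosome 3, from Fcgr1 to Dclre1b and with Notch2 and Nras among them, was higher in P0F than in cerebellar tumours in every gene, and 30 of them passed (68.2%, against 3.45% of all genes). The run was noticed in the data, so it is given as description. Its median over genes, relative to the mean of the E16C and P0C tumours, was 2.34, 2.00 and 0.47 in P0F tumours 1, 2 and 3. It was 0.48 in cells cultured from a P0F tumour and -0.27 in the GFP forebrain NSCs, and -0.53 to -0.005 in GTML tumours. Notch2 itself was higher in P0F than in cerebellar tumours by 2.26, against a median of 1.58 over the run. In the E16C and P0C tumours too, Notch2 was above all GTML tumours.

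**Figure D5:**
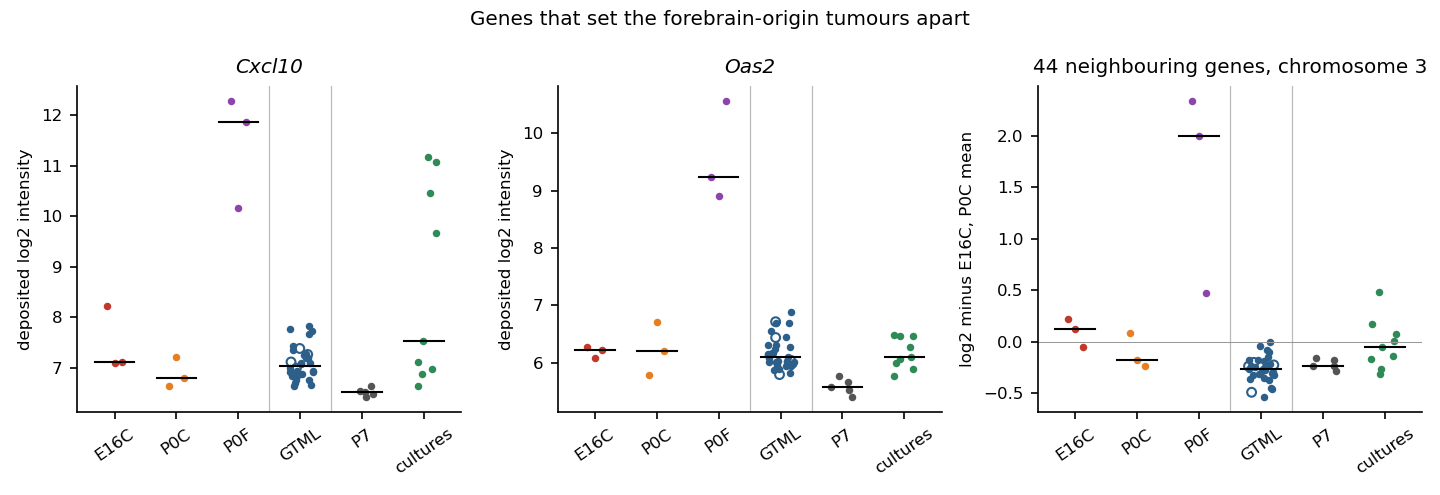
Log2 intensity of Cxcl10 and Oas2 (left and middle, vertical axes) and the median log2 level of 44 neighbouring genes on chromosome 3 relative to the mean of the E16C and P0C tumours (right), in each array by group; black lines are medians and open circles the 4 GTML tumours that stand apart. The 3 P0F tumours lie above all other tumours in each panel, and P0F tumour 3, at 0.47 in the right panel, is far below the other two.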

How the data were processed

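RNA from tumours, cerebella and cultures was purified with Trizol and columns, labelled with biotin and read on Affymetrix whole-transcript arrays, per the labels' protocols. The deposited values are log2 intensities normalised by RMA, with build mm9 named, per the submitters' processing notes. The table held 17831 probes, 15620 with 1 gene symbol, and the probe with the highest mean stood for each of 15224 genes. Blank cells (3.12%) were left missing. List means cover only members without a blank in any array of the series, so they can hold fewer genes than the counts. Genes above 6.30, percentile 25 of all values, in at least 9 of the 41 tumour arrays were tested with limma 3.58.1 in R 4.3.3 with Benjamini-Hochberg adjustment over every gene tested. The comparison of both groups used a 2-group fit, and origins were compared in a fit of 4 groups with an F test and a contrast of P0F with the mean of E16C and P0C. A called gene had an adjusted p under 0.05, a difference of at least 1, no overlap and values in at least 6 orthotopic and 16 GTML tumours. The procedure was tested on simulated data.

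The members and the 35 gene lists were chosen with earlier results of these data known. Named by rule were the 14 largest rises and falls of called genes (clone and predicted genes passed over), up to 3 called genes of each list (or 2 past the test), a set of tumour and lineage genes, the 6 smallest p-values among origins and the 4 highest and lowest genes of P0F tumours. Other list members and the run on chromosome 3 were named after their values were seen. Promoters are from RefSeq (GRCm38.p6), matched by symbol. Alternatives were a stricter filter or none, quantile or median normalisation, a trended variance, a model of all 56 arrays, array weights, a replicate block, other rules for probes and blanks, cerebellar origins alone, and leaving out each orthotopic tumour or the 4 GTML tumours that stood apart.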

Additional observations from a re-analysis of the deposited data

Results flagged for a closer look

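Within the 9 orthotopic tumours, 7 of 101 named genes had an array far from the others. In a group with a single spread, chance gives such a gap in about 1 group in 20, and 7 of 101 is near that rate. The 9 tumours had 3 origins, and 35 of the 101 named genes differed among them, so the rate is only a rough guide. The part of chance was not tested. Neurod1 was at 9.97 in E16C tumour 3, with the next value at 7.61. Atoh1 was at 10.68 in E16C tumour 1, with the next at 7.89. Irx2 was at 7.38 in P0C tumour 1, below a next value of 8.46, and Cd4 was at 7.52 in the same tumour, above a next value of 6.51. Flt1 was at 9.85 in P0C tumour 2, with the next at 7.84, and Dlx5 was at 10.13 in P0C tumour 3, with the next at 8.45. Cd8a was at 6.38 in P0F tumour 1, with the next at 6.14.

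By limma's F test, the difference from GTML tumours depended on the origin of the transplanted cells in 35 of the 101 named genes. Of these, 12 were named because they differed by origin, so their p-values restate that choice. They were Cxcl10 (adjusted p = 1.43e-12), Oas2 (3.75e-12), Oasl1 (5.94e-12), F2rl2 (1.31e-11), Oasl2 (1.52e-11), Etv3 (2.94e-11), Ifih1 (9.24e-10) and Tgtp1 (9.15e-07), all highest in P0F tumours, and Kif6 (7.70e-05), Nhlh1 (0.00143), Folh1 (0.00929) and Pax3 (0.0231), all lowest there. The other 23 were named for other reasons. Highest on average in P0F tumours were Ifit1 (adjusted p = 1.23e-10), Psmb8 (1.65e-08), Notch2 (3.96e-05), Bcan (4.57e-05), Gli3 (6.95e-05), Egr2 (0.00226), Hoxa2 (0.00701), Sox9 (0.0130), Egfr (0.0146) and Ccnd2 (0.0298). Highest in P0C tumours were Fa2h (1.46e-07), Olig2 (1.29e-05), Omg (0.000150), Tgfb2 (0.00177), Pdgfra (0.00345), Myc (0.0200), Hey2 (0.0261) and Vcan (0.0456). Highest in E16C tumours were Atoh1 (0.000154), Gli1 (0.000628), Smo (0.00300), Irx2 (0.00514) and Prm1 (0.0476).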

How the results depend on the processing

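Without GTML tumours 20, 22, 30 and 31, called genes numbered 1072, against 382 with them, and 371 were called both ways. The same step gave 1619 called genes for E16C, 1714 for P0C and 2189 for P0F, 3468 genes that depended on origin and 1757 that differed between P0F and cerebellar tumours. Array weights gave 539 genes that depended on origin. Deviations of same-numbered tumours of different origins correlated with r from -0.18 to 0.21. Whether tumours of the same number shared more than the number was not tested. With the replicate number as a block, which leaves only numbers 1 to 3 in both groups, 3401 genes passed between orthotopic and GTML tumours, 260 among origins and 149 between P0F and cerebellar tumours. Leaving out 1 orthotopic tumour at a time gave 6896 to 7094 genes past the test, 386 to 432 called, 737 to 1150 called for E16C, 759 to 1052 for P0C and 1130 to 1294 for P0F. It gave 1038 to 1679 genes that depended on origin and 413 to 772 for P0F against cerebellar tumours. The 1150 came without E16C tumour 3. Signs turned for Kif6 with array weights (-0.016) and for Cdkn2a with the block (-0.016), and with cerebellar origins alone for Oasl1 (-0.00041), Etv3 (-0.0031) and Nhlh1 (0.34). Over all alternatives, named genes kept direction and side of the threshold in 2108 cases, lost the threshold in 55, gained it in 22 and reversed in these 5. List medians moved by more than their spread in 12 cases and by less in 753. The causes were not tested. Probes near background limit how large a difference can be read.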

Other observations

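On chromosome 3 the run from Fcgr1 to Dclre1b was not the only stretch of neighbouring genes high in P0F tumours. Runs from Tlr2 to Lamtor2 (41 genes) and from Mtx1 to Ubap2l (22 genes) were found in the same scan, which was made after the values were seen and carries no test. Within the 44 genes, the largest differences between P0F and cerebellar tumours were those of Dennd2c (3.49), Olfml3 (3.06), Dclre1b (2.84) and Sike1 (2.75). Nras, a GTPase of growth factor signalling, was higher by 2.26.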
